A study of Mus musculus with 7 samples.

Results

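The lysosomal genes described here are 30 genes of mouse that encode enzymes of the lysosome, their helper proteins and proteins of the lysosomal membrane. They were chosen by symbol for their known place in the lysosome, with earlier results of these data known. All 30 were among the 35641 genes of the table. RNA was sequenced from lung cells that were sorted from female C57BL6 mice of groups named HF (4 libraries) and LF (3 libraries), names that the labels do not spell out. The sort gate was CD45+ CD11b+, low for Ly6C and positive for Ly6G, the usual surface marker of neutrophils. Libraries came from a SMART-Seq kit, a method for small inputs that amplifies the complementary DNA. The title of the study names oxidative stress of neutrophils in obesity. No further allele, agent or age is labelled for either group, and whether a library pools mice is not said.

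The LF columns of the table are numbered 6 to 8, and the libraries labelled LF went against their label; they are called the LF-labelled libraries here. Ly6g, the gene of the sort marker, had 4431, 1301, 2378 and 4944 normalized counts in the HF libraries, and 0.749, 0 and 8.22 in the LF-labelled libraries. Ly6c2, a gene of Ly6C, for which the gate was low, was chosen after its values were seen. It averaged 4193 normalized counts in HF and 13682 in the LF-labelled libraries (log2 -1.78, limma adjusted p = 0.000697). A list of 12 neutrophil markers summed to between 421820 and 569424 normalized counts in HF and to between 8129 and 8702 in the LF-labelled libraries, and all 12 were higher in HF. The 13 markers of monocytes and interstitial macrophages summed to between 23163 and 33776 in HF and to between 140472 and 152559 in the LF-labelled libraries, and the 9 dendritic cell markers to between 10220 and 24110 and between 53996 and 64840. Of these, 8 of 13 and 6 of 9 were lower in HF, and 0 of 13 and 1 of 9 higher. The 5 platelet markers were all higher in HF, with sums of 669 to 3178 against 147 to 334, and 0 of 8 lymphocyte markers passed the test in either direction. Alveolar macrophage markers summed to 33954 in HF1, to between 9425 and 11690 in the other HF libraries and to between 24433 and 26985 in the LF-labelled libraries, with 3 of 10 tested higher in HF and 3 lower. Chil3 alone made up most of each sum, with 30151 in HF1, 6508 to 9035 in the other HF libraries and 18663 to 20453 in the LF-labelled libraries. These sums therefore mainly follow 1 gene. Of the other alveolar macrophage markers, Siglecf averaged 1301 normalized counts in HF and 52.0 in the LF-labelled libraries and Ear2 994 and 4251, while Marco was at 0 in every library but LF6. Every difference reported here is therefore one between the HF libraries and the LF-labelled libraries, whose marker levels moved with it, and the part of cell type in it was not tested. In bulk RNA, fewer cells of a type and less RNA per cell cannot be told apart. Depth ran from 13943173 to 16599658 recovered reads in HF, below each of the LF-labelled libraries, which held 16974428 to 18983351.

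Lysosomes are acidic organelles in which hydrolases break down sugars, lipids, sulfated polymers and proteins delivered from outside the cell or from its own cytoplasm. Most of these enzymes are soluble, are tagged with mannose phosphate in the Golgi and reach the lysosome through sorting receptors, while heavily glycosylated membrane proteins line and protect its wall. Inherited loss of a single member leads to storage of its substrate, and many genes of the organelle are known targets of the transcription factor TFEB and its relatives, which bind a palindromic element around the letters CACGTG. Phagocytes depend on lysosomes to digest what they take up, and neutrophils keep part of the same enzymes in granules.

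Promoters bear on these genes as a shared gene set, so the letters of the TFEB element were looked up in the stretches from 250 bases before to 50 bases after the RefSeq gene starts (build GRCm38.p6). Of the 30 genes, 27 matched an entry by symbol, and Aga, Asah1 and Galns did not. The core CACGTG, which is its own reverse complement, was present for 9 of the 27, among 7.15% of all 32851 promoters of the table. The longer CACGTGAC, searched on both strands (its reverse is GTCACGTG) and always holding the core, was present for 8 of the 27, Arsa, Cln3, Glb1, Lamp1, Lgmn, Mcoln1, Naglu and Sgsh, and in 2.25% of all promoters. The full palindrome of 10 letters, in which the longer motif and its reverse share 1 core, was present for Cln3 alone among the 27, and in 0.326% of all promoters. These shares count promoters and not genes. The 27 genes have 30 promoters, of which 9 held the core, 8 the longer motif and 1 the full palindrome. The 6 stretches below are those of genes with the longer motif that also differed between the groups; the capitals mark the motif, and each is read 5′ to 3′ on the strand of its gene. Capitals in the first begin at position -123 from the start, and in the following ones at -50, -28, -51, -75 and -29. The stretch of Lgmn lies before an alternative start, and that of Cln3 before the downstream of its starts, and GENCODE annotates exon over all 30 bases printed for Cln3, 26 of 30 for Naglu and 16 of 30 for Sgsh.
Cln3, chr7:126583340-126583369, minus strand: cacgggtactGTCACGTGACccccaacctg
Glb1, chr9:114400998-114401065, plus strand: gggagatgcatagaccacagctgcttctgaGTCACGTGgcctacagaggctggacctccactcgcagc
Lamp1, chr8:13159103-13159160, plus strand: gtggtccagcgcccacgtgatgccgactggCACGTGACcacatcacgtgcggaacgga
Lgmn, chr12:102439106-102439173, minus strand: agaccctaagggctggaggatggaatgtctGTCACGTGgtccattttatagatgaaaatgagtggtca
Naglu, chr11:101070008-101070037, plus strand: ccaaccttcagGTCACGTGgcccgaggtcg
Sgsh, chr11:119355521-119355550, minus strand: ggcctgccgtgCACGTGACcgtggggagcg

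The lysosomal genes did not move as a block: 6 were higher in HF, 14 were lower and 10 did not pass the test. Genes were compared on log2(normalized count + 1) with limma, and called at a Benjamini-Hochberg adjusted p under 0.05 over the genes whose mean reached 10 normalized counts. Of 14936 genes tested, 55.0% were called, 26.2% higher and 28.7% lower; the members' counts stand beside these shares and were not tested against them. The values of the groups did not overlap for 24 of the 30, where 62.2% of all tested genes showed no overlap. The median log2 difference, HF minus the LF-labelled libraries, was -0.49 over the members and -0.16 over all tested genes. By the authors' deposited table, adjusted p was under 0.05 for 22 of the 30, 8 higher and 14 lower, among 43.0% of the genes with such a value. When every library was scaled to the same total, 5 members were higher and 22 lower, and the median of all genes moved by -0.51 (log2). The calls of 15 members held under all 16 alternative settings: Cln3, Ppt1, Neu1, Galc and Fuca1 higher, and Psap, Grn, Lamp1, Gaa, Glb1, Gusb, Ids, Galns, Asah1 and Lgmn lower. Of the 8 members with the longer motif, 5 were lower, Cln3 was higher, and Arsa and Mcoln1 did not pass.

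**Figure D1:**
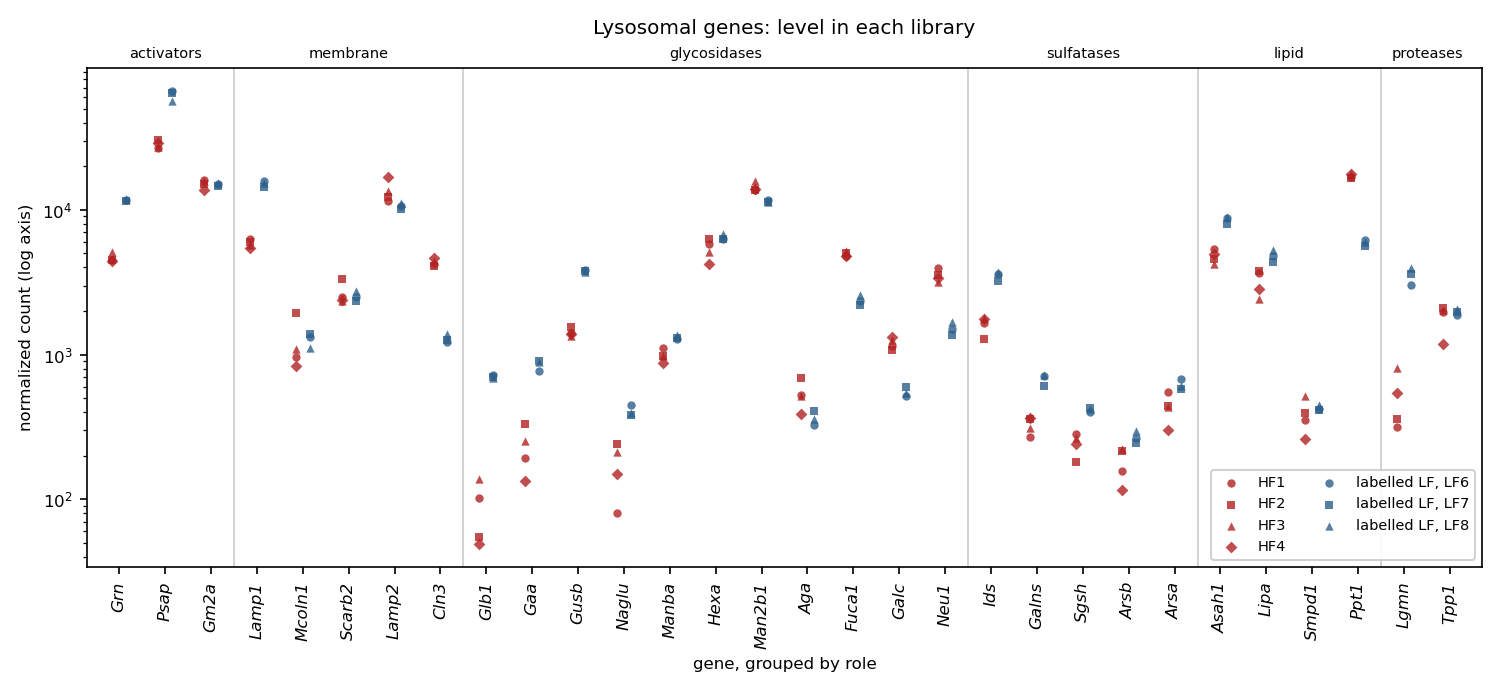
Normalized count (log axis) of each of the 30 lysosomal genes in each HF library (red) and each LF-labelled library (blue), with genes grouped by role. Psap has the highest count in every library, with no correction for gene length; Glb1 and Lgmn show the widest gaps downward, and Cln3 and Ppt1 the widest upward.

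**Figure D2:**
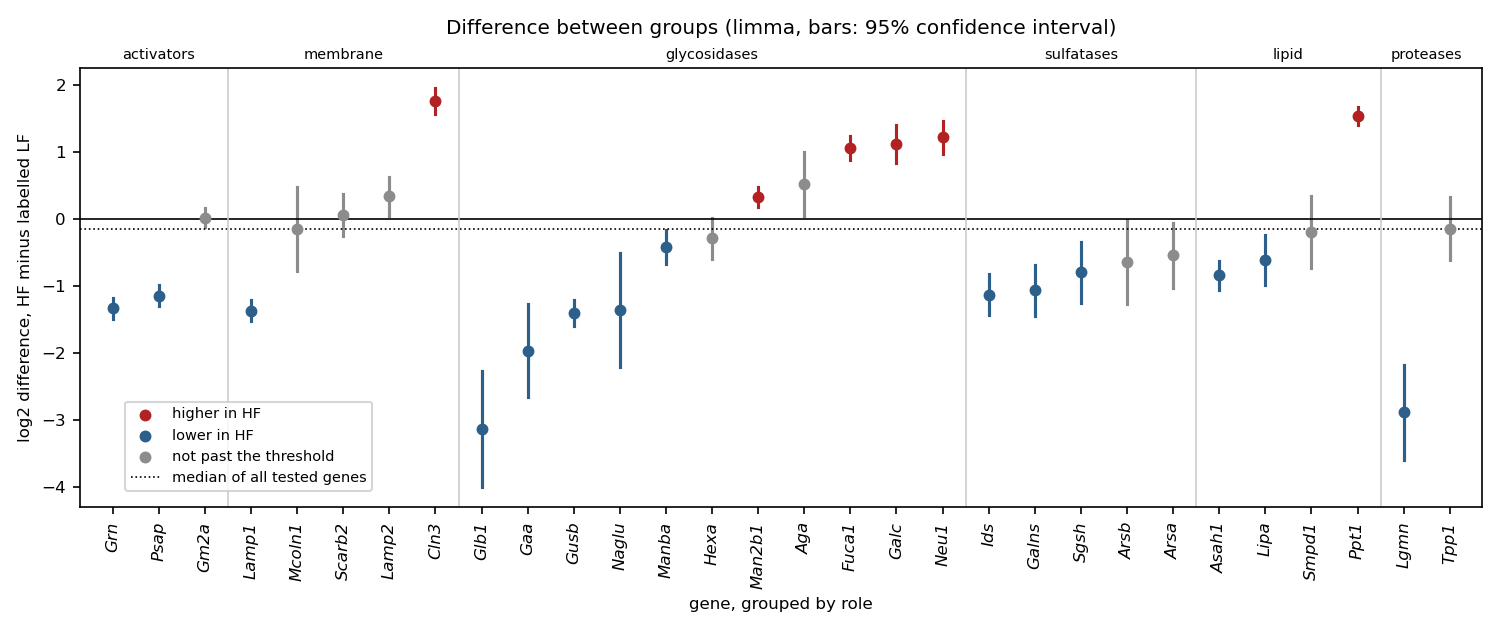
Log2 difference between HF and the LF-labelled libraries for each gene, from limma on log2(normalized count + 1); points are estimates, bars 95% confidence intervals, and the dotted line is the median of all tested genes, -0.16. Estimates run from -3.14 for Glb1 to 1.76 for Cln3, and colours mark the 6 higher, 14 lower and 10 genes that did not pass.

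Of the 3 activators and chaperones, Psap and Grn were lower in HF and Gm2a did not pass. Psap (ENSMUSG00000004207) encodes prosaposin, the precursor of the saposins that present sphingolipids to their hydrolases. It had 26676, 30151, 27022 and 29016 normalized counts in HF1 to HF4 and 66755, 64070 and 56736 in LF6 to LF8. Every HF library lay below every LF-labelled library, by 2.22-fold in the means, and the log2 difference was -1.15 ± 0.07 (SE, limma adjusted p = 4.55e-06). Per kilobase of exon it was the highest of the 30 genes in both groups, with mean levels of 10283 in HF and 22784 in the LF-labelled libraries. Grn (ENSMUSG00000034708), which encodes progranulin, a secreted glycoprotein cut into granulins in the lysosome and a partner of prosaposin in its transport, had 4507, 4505, 5125 and 4424 normalized counts in HF and 11699, 11525 and 11876 in the LF-labelled libraries. HF3 was the highest of the HF libraries and still far below the lowest LF-labelled library; the log2 difference was -1.34 ± 0.07 (SE, limma adjusted p = 1.87e-06). Gm2a (GM2 activator protein, which lifts the ganglioside GM2 to hexosaminidase) had 16054, 15190, 15851 and 13815 normalized counts in HF and 15165, 14703 and 15314 in the LF-labelled libraries. The groups overlapped and the log2 difference was 0.01, with a 95% interval of -0.13 to 0.16 (limma adjusted p = 0.865). With equal library totals this estimate became -0.51 (adjusted p = 0.000682) and with quantile normalization -0.97 (1.59e-05), so its place near 0 depends on the scaling. Per kilobase Gm2a ranked at place 3 of the 30 in both groups, with mean levels of 3690 and 3649.

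Among the 5 membrane proteins the closest relatives parted. Lamp1 and Lamp2 encode the most abundant glycoproteins of the lysosomal wall, and a splice form of Lamp2 is the receptor of chaperone-mediated autophagy. Lamp1 (ENSMUSG00000031447) had 6265, 6027, 5674 and 5452 normalized counts in HF and 15770, 14423 and 15295 in the LF-labelled libraries. The groups lay far apart, with a log2 difference of -1.37 ± 0.07 (SE, limma adjusted p = 1.52e-06), and 9.31% of its exon bases overlap Grtp1 on the other strand, which averaged 47.1 and 78.4 normalized counts. Per kilobase Lamp1 stood at place 2 in the LF-labelled libraries (5668) and at place 5 in HF (2189). Lamp2 had 11484, 12186, 13572 and 16797 in HF and 10611, 10121 and 11108 in the LF-labelled libraries. All HF values lay above all others, HF4 the most, yet the log2 difference of 0.33 (95% interval 0.05 to 0.62) just missed the threshold (limma adjusted p = 0.0501). It passed without HF1 (adjusted p = 0.0251) and without HF4 (0.0397). With a pseudocount of 5, with the filter at a mean of 50 and with DESeq2 it passed too, as in the authors' deposited table (adjusted p = 0.0464). The adjusted p ranged from 0.00109 to 0.143 over the alternatives, and the direction turned with equal totals (-0.19) and quantile normalization (-0.55).

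Cln3 and Mcoln1 are the remaining channel- or transporter-like members, and Scarb2 the remaining wall protein. Cln3 (ENSMUSG00000030720), a membrane protein whose loss causes juvenile Batten disease, had 4255, 4086, 4466 and 4680 normalized counts in HF and 1225, 1270 and 1379 in the LF-labelled libraries. The libraries of each group were close together and the groups 3.39-fold apart; the log2 difference, 1.76 ± 0.08 (SE, limma adjusted p = 1.34e-06), was the largest upward one of the 30. Whether the counting used strand is not given in the sources used here, and 7.65% of the annotated exon bases of Cln3 overlap Apobr on the other strand, which averaged 4031 normalized counts in HF and 1172 in the LF-labelled libraries. Mcoln1, the calcium-releasing channel mucolipin, averaged 1208 ± 503 (SD, n = 4) and 1276 ± 152 (SD, n = 3), with HF2 at 1947 and the other HF libraries between 840 and 1089. Its log2 difference was -0.15 (95% interval -0.78 to 0.48, limma adjusted p = 0.658). Without HF2 it was -0.41 and passed (adjusted p = 0.0486), against a range of 0.0486 to 0.992 over the alternatives. Scarb2, the receptor that carries glucocerebrosidase to the lysosome, averaged 2649 ± 462 (SD, n = 4) in HF against 2525 ± 213 (SD, n = 3) in the LF-labelled libraries, also with HF2 as the highest library at 3334. The groups overlapped (log2 difference 0.06, 95% interval -0.26 to 0.37, limma adjusted p = 0.738), and the estimate was -0.06 without HF2, -0.46 with equal totals (adjusted p = 0.0277) and -0.35 with quantile normalization.

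The 11 enzymes that cut sugars from glycoproteins, glycolipids and glycans split both ways, with 4 higher, 5 lower and 2 not past. Glb1 (ENSMUSG00000045594), the acid beta-galactosidase used as a senescence stain, had 101, 55.3, 139 and 48.7 normalized counts in HF and 725, 696 and 684 in the LF-labelled libraries. The HF values were widely spread but stayed far below the others, with means 8.14-fold apart and the largest downward log2 difference of the 30, -3.14 ± 0.38 (SE, limma adjusted p = 0.000214). Per kilobase it was the lowest of the 30 in HF (28.6) and at place 19 in the LF-labelled libraries (233). Of its exon bases 5.49% are shared with Tmppe on the same strand, which averaged 91.2 normalized counts in HF and 409 in the LF-labelled libraries. The summed monocyte and macrophage markers were 23163, 24287, 33776 and 29030 in HF1 to HF4. HF3 was highest in both, HF1 was lowest in the markers and second in Glb1, and HF4 was lowest in Glb1. Csf1r was the largest part of these sums, at 12813, 14582, 15633 and 13263. Single markers ordered the libraries otherwise: F13a1 had 437, 42.4, 1014 and 403 in HF1 to HF4, and Ccr2 348, 486, 1737 and 1065. The part of those cells in the values of Glb1 was not tested.

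Gaa (ENSMUSG00000025579), the acid alpha-glucosidase that degrades glycogen and is lost in Pompe disease, had 193, 333, 253 and 133 normalized counts in HF and 766, 901 and 883 in the LF-labelled libraries. The groups did not overlap and the log2 difference was -1.97 ± 0.30 (SE, limma adjusted p = 0.0008). Gusb (ENSMUSG00000025534), beta-glucuronidase, which acts on glycosaminoglycans and is stored in neutrophil granules, had 1408, 1560, 1353 and 1383 in HF and 3855, 3783 and 3738 in the LF-labelled libraries. Both groups were tight, and the log2 difference was -1.41 ± 0.08 (SE, limma adjusted p = 3.98e-06). Naglu (ENSMUSG00000001751), which takes N-acetylglucosamine from heparan sulfate, had 80.7, 240, 211 and 150 in HF and 445, 384 and 392 in the LF-labelled libraries. HF1 was the lowest by far and the groups did not overlap; the log2 difference was -1.36 ± 0.37 (SE, limma adjusted p = 0.0144). Without LF6 the adjusted p of Naglu was 0.0545 (log2 -1.30), and with quantile normalization 0.074 (log2 -0.89), in a range of 0.0028 to 0.074 over the alternatives.

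The mannosidases differed in direction. Man2b1, the acid alpha-mannosidase, averaged 14294 ± 1006 (SD, n = 4) in HF against 11376 ± 212 (SD, n = 3) in the LF-labelled libraries, a log2 difference of 0.33 ± 0.06 (SE, limma adjusted p = 0.003). That direction turned with equal totals (-0.19, adjusted p = 0.0264) and with quantile normalization (-0.57, adjusted p = 9.23e-05). Manba, the beta-mannosidase, averaged 986 ± 94.8 (SD, n = 4) and 1318 ± 49.7 (SD, n = 3), with a log2 difference of -0.42 (limma adjusted p = 0.0132). Its call was lost without LF7 (adjusted p = 0.0508) and without LF8 (0.064), in a range of 0.000344 to 0.064 over the alternatives.

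The other 3 glycosidases that were higher in HF remove terminal sugars from glycans and glycolipids. Neu1 (ENSMUSG00000007038), the lysosomal sialidase that removes terminal sialic acids, had 3946, 3565, 3160 and 3387 normalized counts in HF and 1491, 1372 and 1676 in the LF-labelled libraries. Galc (ENSMUSG00000021003), the galactosylceramidase of myelin lipids that is lost in Krabbe disease, had 1147, 1072, 1260 and 1316 in HF and 515, 595 and 541 in the LF-labelled libraries. Fuca1 (ENSMUSG00000028673), which removes fucose, had 4798, 5051, 5197 and 4771 in HF and 2362, 2203 and 2584 in the LF-labelled libraries. For each of these genes every HF library lay above every LF-labelled library, by 2.32-, 2.18- and 2.08-fold in the means. The log2 differences were 1.22 ± 0.11 for Neu1, 1.12 ± 0.12 for Galc and 1.06 ± 0.08 for Fuca1 (SE, limma adjusted p = 4.21e-05, 0.000129 and 1.64e-05).

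Hexa and Aga did not pass. Hexa, the alpha subunit of beta-hexosaminidase, whose loss causes Tay-Sachs disease, averaged 5343 ± 898 (SD, n = 4) in HF against 6470 ± 320 (SD, n = 3) in the LF-labelled libraries (log2 difference -0.29, 95% interval -0.60 to 0.01, limma adjusted p = 0.0942). It passed without HF2 (log2 -0.37, adjusted p = 0.0377), with equal totals (log2 -0.81) and with quantile normalization (log2 -1.03), and its adjusted p ranged from 0.000253 to 0.241 over the alternatives. Of its exon bases, 12.8% overlap Tmem202 on the other strand, which averaged 204 normalized counts in HF and 7.15 in the LF-labelled libraries. Aga, the glycosylasparaginase that splits the sugar from asparagine at the end of glycoprotein breakdown, averaged 532 ± 121 (SD, n = 4) and 364 ± 40.4 (SD, n = 3), and HF4 (391) lay below LF7 (407). Its log2 difference was 0.52 (95% interval 0.04 to 1.0, limma adjusted p = 0.0629), or 0.66 without HF4 (adjusted p = 0.0177, in a range of 0.00559 to 0.989 over the alternatives). Aga also passed with quantile normalization, with DESeq2 and in the authors' deposited table (adjusted p = 0.0455).

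All 5 sulfatases, which remove sulfate groups from glycosaminoglycans or sulfolipids, had every HF value below every value of the LF-labelled libraries. Of all tested genes, 62.2% showed no overlap, a share that counts both directions. In the test 3 of the 5 were called, all lower, where 55.0% of all tested genes were called and 28.7% called lower. The counts of the sulfatases were not tested against those shares. The median log2 difference of the 5 sulfatases was -0.80. Ids (ENSMUSG00000035847), the iduronate sulfatase of Hunter syndrome, had 1648, 1278, 1786 and 1759 normalized counts in HF and 3630, 3223 and 3723 in the LF-labelled libraries. HF2 was the lowest, and the log2 difference was -1.13 ± 0.13 (SE, limma adjusted p = 0.000195). Galns (ENSMUSG00000015027), which acts on keratan and chondroitin sulfate, had 271, 361, 311 and 364 in HF and 710, 610 and 724 in the LF-labelled libraries. The groups were 2.09-fold apart in the means, with a log2 difference of -1.06 ± 0.17 (SE, limma adjusted p = 0.000901).

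Sgsh, the heparan sulfamidase, averaged 242 ± 44.3 (SD, n = 4) in HF against 417 ± 12.7 (SD, n = 3) in the LF-labelled libraries, a log2 difference of -0.80 (limma adjusted p = 0.0096) that missed the threshold with quantile normalization (-0.34, adjusted p = 0.169). Arsa, which hydrolyses sulfatide and is lost in metachromatic leukodystrophy, averaged 431 ± 102 (SD, n = 4) and 619 ± 51.0 (SD, n = 3). Its log2 difference of -0.55 (95% interval -1.03 to -0.06) missed the threshold (limma adjusted p = 0.0557) and passed it without HF1 (-0.68, adjusted p = 0.0207), in a range of 0.00413 to 0.308 over the alternatives. Arsa also passed with equal totals and with the filter at a mean of 50. Arsb, which acts on dermatan and chondroitin sulfate, averaged 177 ± 50.6 (SD, n = 4) and 270 ± 26.9 (SD, n = 3). Its log2 difference of -0.65 (95% interval -1.28 to -0.01) also missed the threshold (limma adjusted p = 0.0766) and passed without HF3 (-0.77, adjusted p = 0.0456), in a range of 0.00872 to 0.796. Arsb passed with equal totals too. Genes annotated on the other strand overlap the exon bases of each: C230037L18Rik 18.8% of those of Arsa, at 23.9 and 9.17 normalized counts, and Card14 21.6% of those of Sgsh, at 5.43 and 1.5. For Arsb these are Gm26527 (32.3%), with no value here, and Gm47210 (7.67%), at 0.288 and 1.75.

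Of the 4 lipid hydrolases and thioesterases, Ppt1 was higher in HF, Asah1 and Lipa were lower, and Smpd1 did not pass. Ppt1 (ENSMUSG00000028657), the palmitoyl-protein thioesterase that strips fatty acids from proteins and is lost in infantile Batten disease, had 16778, 16538, 17556 and 17759 normalized counts in HF and 6155, 5628 and 6008 in the LF-labelled libraries. Both groups were tight and 2.89-fold apart, and the log2 difference was 1.53 ± 0.06 (SE, limma adjusted p = 3.49e-07). Per kilobase Ppt1 stood at place 2 of the 30 in HF (4670) and at place 7 in the LF-labelled libraries (1614). Cap1, on the other strand, shares 3.51% of its exon bases and averaged 7378 normalized counts in HF and 2454 in the LF-labelled libraries. Asah1, the acid ceramidase, averaged 4784 ± 498 (SD, n = 4) and 8552 ± 496 (SD, n = 3), a log2 difference of -0.84 ± 0.09 (SE, limma adjusted p = 0.00014). Lipa, the acid lipase that frees cholesterol from its esters, averaged 3179 ± 642 (SD, n = 4) and 4812 ± 464 (SD, n = 3). Its log2 difference was -0.62 (limma adjusted p = 0.0128), and without LF8 it was -0.55 (adjusted p = 0.0542, in a range of 0.000232 to 0.0542). Smpd1, the acid sphingomyelinase, averaged 381 ± 105 (SD, n = 4) and 426 ± 18.7 (SD, n = 3), with a log2 difference of -0.20 (95% interval -0.74 to 0.33, limma adjusted p = 0.481). It turned to 0.20 with quantile normalization and was -0.72 with equal totals (adjusted p = 0.0331).

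The proteases were Lgmn and Tpp1. Lgmn (ENSMUSG00000021190), legumain, an endopeptidase that cuts after asparagine and matures cathepsins, had 318, 359, 804 and 543 normalized counts in HF and 3026, 3602 and 3941 in the LF-labelled libraries. HF3 was again the highest HF library, every HF value was far below the lowest of the others, and the log2 difference was -2.89 ± 0.31 (SE, limma adjusted p = 0.000112). Its level per kilobase stood at place 8 of the 30 in the LF-labelled libraries (1517) and at place 19 in HF (218). Tpp1, the tripeptidyl peptidase of late-infantile Batten disease, had 1976, 2112, 2045 and 1178 in HF and 1886, 1981 and 2067 in the LF-labelled libraries. HF4 stood alone below the other libraries and the rest overlapped. The log2 difference was -0.15 (95% interval -0.62 to 0.32, limma adjusted p = 0.552), it was 0.05 without HF4, and with equal totals it was -0.67 (adjusted p = 0.0313).

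The summed counts of the 30 genes were lower in HF and made up a smaller share of the library. Sums ran from 136935 to 141138 normalized counts in HF and from 178018 to 185534 in the LF-labelled libraries, or 0.709% to 0.787% and 1.37% to 1.42% of all normalized counts. The make-up of that sum, in counts not corrected for length, differed too. Psap alone held 19.3% to 21.4% of it in HF and 31.8% to 36.0% in the LF-labelled libraries, and Ppt1 11.7% to 12.8% against 3.16% to 3.37%. Psap, Lamp1 and Grn together, chosen after their values were seen, held 27.1% to 28.8% in HF and 47.1% to 50.8% in the LF-labelled libraries. Man2b1, Ppt1 and Lamp2, chosen likewise, held 30.1% to 35.1% in HF and 15.2% to 15.9% in the LF-labelled libraries. These shares do not depend on a factor that scales a whole library.

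**Figure D3:**
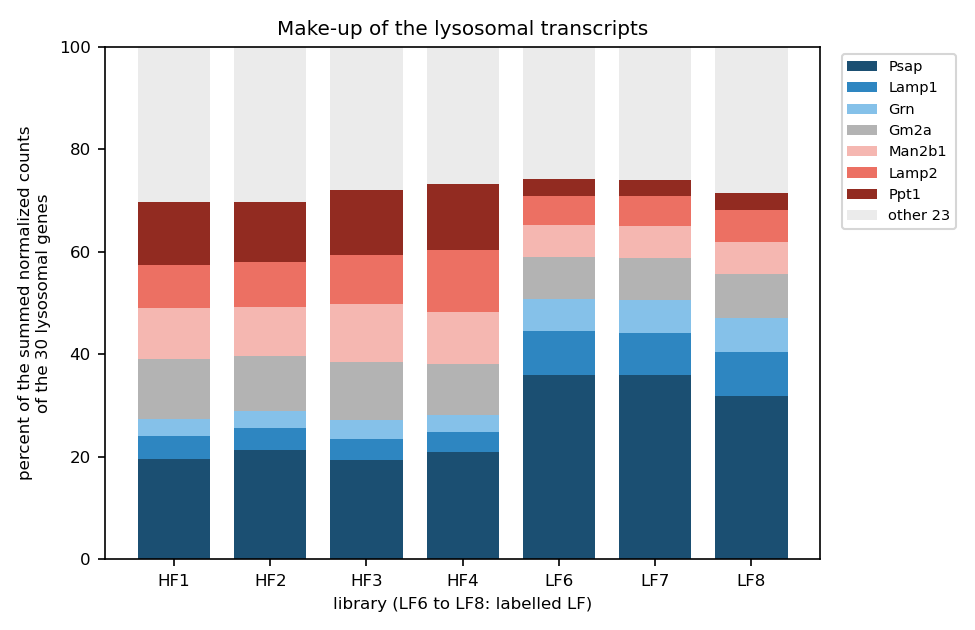
Share of the summed normalized counts of the 30 lysosomal genes (percent, bars stacked to 100) held by 7 genes and by the other 23, in each library. The blue shares of Psap, Lamp1 and Grn come to 27.1% to 28.8% in HF and 47.1% to 50.8% in the LF-labelled libraries, and the dark red share of Ppt1 to 11.7% to 12.8% and 3.16% to 3.37%.

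The HF libraries varied more among themselves. The coefficient of variation (SD over mean) had a median of 15.6% over the 30 genes in HF and 6.76% in the LF-labelled libraries, and was larger in HF for 25 of the 30. Over all tested genes the medians were 34.0% and 11.6%, and 84.4% of them varied more in HF. The widest spread within HF was that of Glb1 (49.2%), followed by Lgmn (43.8%), Mcoln1 (41.6%) and Naglu (41.5%), while Ppt1 (3.45%) and Fuca1 (4.14%) were the steadiest.

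Ratios of members within a library do not depend on such a factor either. They were taken for 8 pairs, chosen as partners in a complex, in binding or in family, the last taken broadly. Manba and Man2b1 are both mannosidases, and Mcoln1 and Lamp1 are both membrane proteins. Quantile normalization can move the ratios: under it Manba and Man2b1 had log2 differences of -0.48 and -0.57, and Gm2a and Hexa of -0.97 and -1.03. The ratio of Lamp2 to Lamp1 was 1.83, 2.02, 2.39 and 3.08 in HF and 0.673, 0.702 and 0.726 in the LF-labelled libraries. The ratio of counts, which are not corrected for length, was above 1 in every HF library and below 1 in every LF-labelled library, and the log2 ratio differed by 1.71. Per kilobase Lamp2 stood at 1414 and 1111 and Lamp1 at 2189 and 5668, so by this measure Lamp1 was the higher of the pair in both groups. That order rests on the union of all annotated exons, 9552 bases for Lamp2 and 2675 for Lamp1. The lengths of the transcripts present were not measured. The sialidase Neu1 and the galactosidase Glb1, which sit in one lysosomal complex, had ratios of 38.9, 64.5, 22.7 and 69.5 in HF and 2.06, 1.97 and 2.45 in the LF-labelled libraries. This was the widest gap of the 8, with a log2 difference of 4.36. It follows from the estimates of Neu1 (1.22) and Glb1 (-3.14) given above. The log2 difference of every pair follows likewise from its members, so the pairs are not a separate set of evidence. The ratio of Galc to Psap, the precursor of its activator, ran from 0.0356 to 0.0466 in HF and from 0.00771 to 0.00954 in the LF-labelled libraries (log2 difference 2.27).

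The other pairs lay closer together. Mcoln1 to Lamp1 ran from 0.153 to 0.323 in HF and from 0.0722 to 0.0965 in the LF-labelled libraries (log2 difference 1.22). Manba to Man2b1 ran from 0.0623 to 0.0807 and from 0.110 to 0.122 (-0.75), and Gm2a to Hexa from 2.43 to 3.28 and from 2.24 to 2.40 (0.30). For these 6 pairs the groups did not overlap, and the two-sided exact permutation p was 0.0571, the smallest that 4 against 3 libraries allow, or 0.0762 adjusted over the 8 pairs. The ratio of Grn to Psap overlapped, with 0.149 to 0.190 in HF and 0.175 to 0.209 in the LF-labelled libraries (log2 difference -0.19, exact permutation p = 0.229). Arsa to Psap overlapped too, with 0.0104 to 0.0207 and 0.00899 to 0.0107 (log2 difference 0.60, exact permutation p = 0.114, adjusted 0.131).

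**Figure D4:**
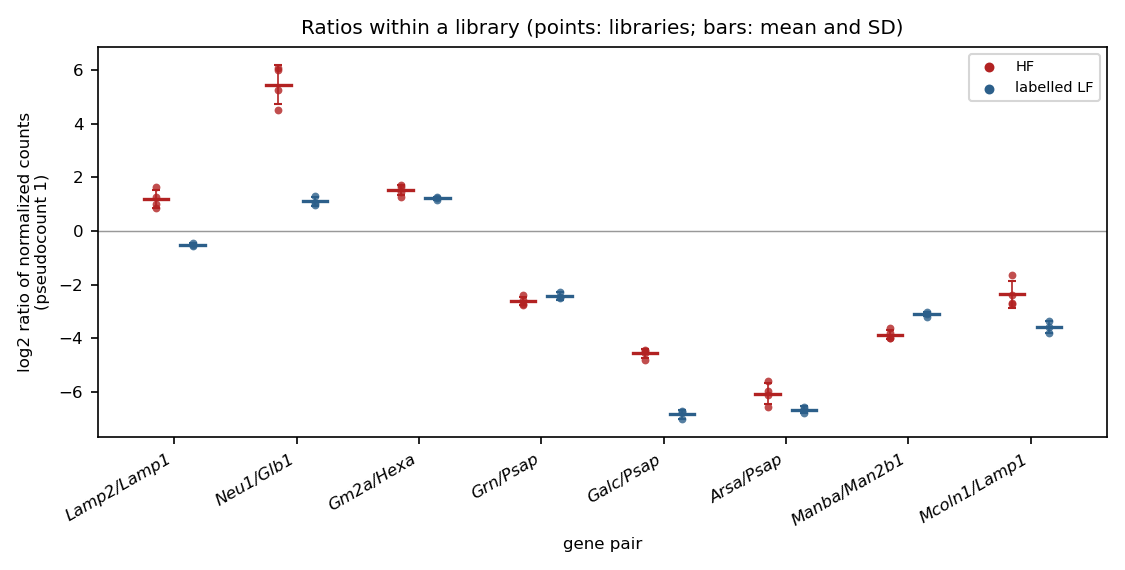
Log2 ratio of 2 lysosomal genes within each library for 8 pairs, HF in red and LF-labelled libraries in blue, with the mean and SD of each group as bars. Neu1/Glb1 differs most (4.36), Lamp2/Lamp1 changes sides of 0, and Grn/Psap overlaps.

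Other genes of the organelle, listed by function, were set beside the members. Of all tested genes 55.0% were called, 26.2% higher and 28.7% lower, and the counts of these further lists were not tested against those shares. Of 33 other hydrolases and cofactors, 8 were higher in HF, 22 lower and 3 not past (median log2 difference -1.39). The largest upward difference was that of Arsg, a further sulfatase, at 1105 ± 47.3 (SD, n = 4) and 61.2 ± 12.9 (SD, n = 3) normalized counts (log2 4.17, limma adjusted p = 8.4e-07), the opposite direction to the sulfatase members. Gla, the alpha-galactosidase of Fabry disease, followed (log2 1.30). Hyal2, a hyaluronidase, was lowest relative to the LF-labelled libraries, at 3.94 ± 4.55 (SD, n = 4) and 89.8 ± 15.6 (SD, n = 3), and the carboxypeptidases Scpep1 (log2 -4.02) and Prcp (log2 -3.05) followed. Ctsa, the protective protein that holds Neu1 and Glb1 together, had the highest mean count of this list over all 7 libraries, with 8759 ± 918 (SD, n = 4) in HF against 13803 ± 639 (SD, n = 3) in the LF-labelled libraries (log2 -0.66, limma adjusted p = 0.000426). Sumf1, which activates all sulfatases and was chosen after its values were seen, had 328 ± 104 and 1888 ± 48.2 (SD, n = 4 and 3; log2 -2.58, limma adjusted p = 5.83e-05).

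Of 29 other membrane proteins, 6 were higher, 13 lower and 10 not past (median -0.76); with equal totals 4 were higher and 21 lower. The tetraspanin Cd63, a marker of late endosomes and of primary granules, had 3506 ± 512 (SD, n = 4) in HF against 251 ± 203 (SD, n = 3) in the LF-labelled libraries (log2 4.16, limma adjusted p = 0.000296). The cation channel Tpcn2 (log2 2.70) and Sidt2, a transporter of nucleic acids (log2 1.48), followed upward. The cysteine importer Mfsd12 (log2 -2.61), the nucleoside transporter Slc29a3 (log2 -2.06) and the sialic acid exporter Slc17a5 (log2 -1.96) led downward. Laptm5, the highest of the list in both groups, had 27693 ± 739 (SD, n = 4) and 26688 ± 316 (SD, n = 3), with a limma adjusted p of 0.29 and a direction that turned with equal totals and quantile normalization.

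Of 18 subunits of the proton pump, which acidifies the organelle, 12 were higher in HF, 3 lower and 3 not past (median 0.64). That split rests on the scaling, with 6 higher and 5 lower with equal totals and 7 and 5 with quantile normalization. The membrane subunits of family a parted. Atp6v0a1 averaged 3292 ± 626 (SD, n = 4) normalized counts in HF against 559 ± 40.5 (SD, n = 3) in the LF-labelled libraries (log2 2.54, limma adjusted p = 6.2e-06), while Tcirg1 and Atp6v0a2 were lower (log2 -1.28 and -1.18). Atp6v1g1 (log2 1.82) and Atp6v1d (log2 1.12) were the next highest, and Atp6v1h was lower (log2 -1.03). Atp6ap1, the accessory subunit with the highest mean count, was higher by 0.66 with a limma adjusted p of 4.8e-05, an estimate that was 0.14 with equal totals (adjusted p = 0.102) and -0.19 with quantile normalization (0.0559).

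Of 9 genes that tag and sort the enzymes, 3 were higher, 3 lower and 3 not past (median -0.44). With equal totals 1 was higher and 6 lower (median -0.95), and with quantile normalization 1 and 3 (median 0.02). The receptors for the mannose phosphate tag differed in direction. Igf2r, the larger receptor, had 822 ± 335 (SD, n = 4) in HF against 135 ± 54.0 (SD, n = 3) in the LF-labelled libraries (log2 2.59, limma adjusted p = 0.000863), and M6pr, the smaller one, had 2086 ± 184 and 5425 ± 251 (log2 -1.38, limma adjusted p = 7.2e-06). Gnptab and Nagpa, the enzymes that make the tag, were lower in HF (log2 -2.18 and -2.38). Sort1, a sorting receptor of another kind, was higher (log2 0.62), and with equal totals its estimate was 0.10 (adjusted p = 0.346). The adaptor Gga1 passed narrowly (log2 0.27, limma adjusted p = 0.0396) and no longer did without HF1, HF3, HF4, LF6 or LF7, with adjusted p between 0.0572 and 0.165; with equal totals it turned to -0.25 (adjusted p = 0.0476).

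Of 15 genes of the TFEB family and of the nutrient-sensing complex that controls it, 6 were higher, 3 lower and 6 not past (median 0.26). With equal totals 3 were higher and 7 lower. Tfeb itself, chosen after its values were seen, had 2740 ± 264 (SD, n = 4) in HF against 1301 ± 139 (SD, n = 3) in the LF-labelled libraries (log2 1.07, limma adjusted p = 0.000108), and its relatives Tfe3 (log2 0.12), Mitf (log2 0.43) and Tfec (log2 -0.87) did not pass. With equal totals Tfe3 (-0.40, adjusted p = 0.0162) and Tfec (-1.39, 0.0309) were lower, and so was Tfec without LF6 (-1.38, 0.0287). The folliculin partners Fnip1 (log2 1.75) and Fnip2 (log2 1.31) were higher, as was folliculin (Flcn), the highest by its mean over all 7 libraries, at 3080 ± 870 and 1507 ± 61.3 (log2 0.98, limma adjusted p = 0.00744, or 0.148 with equal totals). The GTPase Rragd was higher at low counts (99.2 ± 69.9 and 18.9 ± 8.11, limma adjusted p = 0.0215), and this call was lost without LF6 (0.0597), without LF7 (0.0795) and with equal totals (0.0536). Lamtor5 was lower (log2 -0.56), and so were Rraga (log2 -0.48) and Lamtor2 (log2 -0.52). Rraga lost its call without LF6 (limma adjusted p = 0.104), without LF7 (0.0772), with no filter (0.0505) and with quantile normalization (0.0782). Lamtor2 lost its call with any of HF2, HF3, HF4 or the LF-labelled libraries left out, with adjusted p from 0.0972 to 0.137. In limma it was also lost with a pseudocount of 0.5 (0.0505) and with no filter (0.0992). Lamtor2 did not pass with edgeR (0.0723 with the authors' size factors, 0.0668 with TMM), with DESeq2 (0.0588) or in the authors' deposited table (0.0617).

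**Figure D5:**
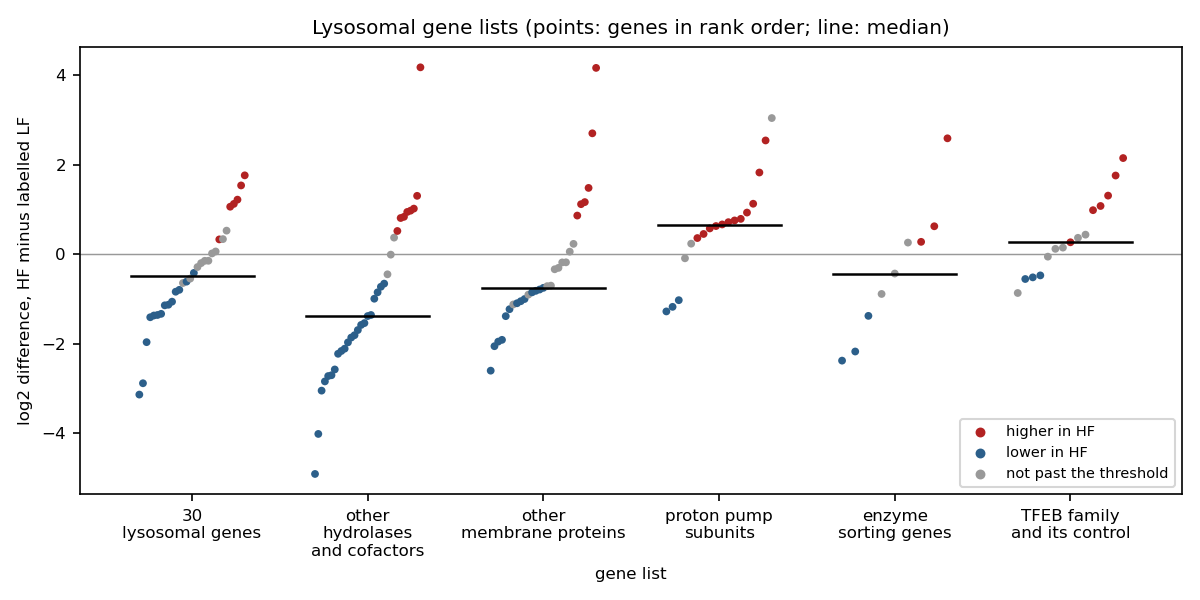
Log2 difference between HF and the LF-labelled libraries (limma) for the 30 lysosomal genes and 5 further lists, each point a gene in rank order and each line a median. Medians are -0.49, -1.39, -0.76, 0.64, -0.44 and 0.26 from left to right.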

How the data were processed

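RNA-seq of sorted mouse lung cells was deposited as 1 table with 4 HF and 3 LF columns. Its name calls the values normalized counts, which is a signal the authors made from the gene counts of a library, and which is never negative. The submitters' processing notes list STAR 2.6.1b, featureCounts 1.6.3 and DESeq2 1.20.0. The genome build is not given in the sources used here, nor are the annotation and the strand setting. Per the file headers, further columns hold log2 fold changes, a test score and p-values of the authors, raw and adjusted; a value of theirs is always named as from the authors' deposited table. Every value (100%, within 0.01) was a whole multiple of what 1 read is worth in its library, so reads could be recovered. No library column was left unmapped (0 columns). The LF columns carry the numbers 6 to 8 and were assigned by group only. The design text counts mice, and p-values rest on the spread between libraries.

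Genes whose mean reached 10 normalized counts were compared with limma 3.58.1 (trend, R 4.3.3) as log2(normalized count + 1), with Benjamini-Hochberg adjustment over all tested genes and a threshold of 0.05. Because of the pseudocount, differences of low genes are understated. Pair ratios were compared by exact two-sided permutation over libraries (scipy 1.17.1). Levels per kilobase use the union of GENCODE exons of GRCm38. The alternatives varied the pseudocount (0.5 and 5), the filter (none, or a mean of 50) and the scaling (equal totals, quantiles). Recovered reads were also tested with edgeR 4.0.16, using TMM or the authors' size factors (7624 genes called), and with DESeq2 1.42.0. Each library was left out in turn. The fits were tested on simulated data. Reads came from amplified DNA with no molecular identifiers, so they do not count molecules. Figures were drawn with matplotlib 3.10.9.

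The 30 genes, the further lists and the markers were chosen with earlier results of these data known. By rule, values in every library are given for members past the threshold with a log2 difference of at least 1 and for the 3 highest per kilobase, and from each further list up to 3 genes with the largest called difference in each direction and the 1 with the highest mean count. Members outside that rule are given by mean, range or, where 1 library decides a value, by library. Genes outside it are marked as chosen after their values were seen. A gene that the rule names is not reported here. Of the listed names, 3 had no row under that symbol.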

Additional observations from a re-analysis of the deposited data

Results flagged for a closer look

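Samples standing apart within a group were looked for in 38 groups of 4 HF values (the members and the pair ratios), of which 3 stood apart; chance gives about 1 in 20. Grn had 5125 normalized counts in HF3 and 4424 to 4507 in the other HF libraries, so that the gap to the nearest took up 0.882 of the whole range. Man2b1 had 15790 in HF3 and 13686 to 13988 in the others (0.857 of the range). Tpp1 had 1178 in HF4 and 1976 to 2112 in the others (0.854 of the range). HF3 also had the highest summed monocyte and macrophage markers (33776) and platelet markers (3178) of the HF libraries. The part of those cells in the values of Grn and Man2b1 was not tested.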

How the results depend on the processing

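The count of 14 lower members became 22 with equal library totals, where 5 were higher. The share of higher calls among all called genes was then 29.99%, against 47.7%. With 1 library left out, 6432 to 8470 genes were called in all (8211 with every library), 6 to 8 members were higher and 12 to 16 lower. Estimates that changed direction with equal totals were Gm2a (-0.51), Lamp2 (-0.19), Scarb2 (-0.46) and Man2b1 (-0.19), and with quantile normalization Gm2a (-0.97), Lamp2 (-0.55), Scarb2 (-0.35), Man2b1 (-0.57) and Smpd1 (0.20). Gm2a, whose estimate was near 0, also changed sign with edgeR and TMM (-0.0067), and with 1 library left out its estimates ran from -0.013 (without HF1) to 0.060 (without HF4), those without HF3 (-0.0065) and LF7 (-0.0036) being negative too. Left-out estimates of Scarb2 ran from -0.058 (without HF2) to 0.12 (without LF8), and those of Tpp1 from -0.23 (without HF2) to 0.048 (without HF4). The cause was not tested. On recovered reads edgeR called 6 members higher and 14 lower under both scalings, and DESeq2 8 and 14. Pair ratios kept their direction under every pseudocount and with each library left out. No paired analysis was possible because the LF columns share no replicate numbers with the HF libraries.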
